A study of Mus musculus with 7 samples.

Results

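FRA2 binding was compared between STHdhQ111 and STHdhQ7, a pair of mouse striatal cell lines called Q111 and Q7 from here on, at all 64579 FRA2 binding events listed for these lines, out of 137595 events listed for FRA2, JUND and SOX2 together. The events were taken without selection: each is a single base position on the mm9 genome at which the authors' event caller, GPS, placed a FRA2 site, with the reads of the immunoprecipitate (IP) assigned to it in each line. Q7 carries HdhQ7/Q7, huntingtin with a short glutamine tract on both alleles, and Q111 carries HdhQ111/Q111, a tract in the range that causes Huntington's disease on both alleles. Both lines derive from the striatum of embryos at day 14 of strain 129SvEv/CD1, were used at less than 15 passages, and were grown at 33 °C, then kept at 39 °C over the last 2 days, a step meant to halt the cell cycle. Each library pools replicates 1 and 2, so there is 1 library per line and no spread between replicates. Each genotype is represented by 1 cell line, so an effect of the allele and any other difference between the lines cannot be told apart.

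FRA2, the product of Fosl2, is a member of the Fos family of transcription factors. Fos proteins do not bind DNA as pairs of their own kind but join a Jun protein, such as JUND, to form the dimer AP-1, which binds the short palindrome known as the TPA response element. AP-1 is known for occupying enhancers far from gene starts, often next to factors that set cell identity, and in neural progenitors one of these is SOX2. The question put to these data was where in the genome FRA2 occupancy differs between a line with expanded huntingtin and a line without it.

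Listed events held 3340554 FRA2 reads in Q7 and 3498922 in Q111. Per event the Q7 library had a median of 30.9 reads (quartiles 20 and 59, highest 946) and the Q111 library one of 32.8 (quartiles 21 and 63, highest 4031). Control reads, which the deposited table gives on a scaled basis, averaged 4.30 per event in Q7 and 5.71 in Q111, a log2 ratio of 0.41. The difference at an event is given below as the log2 ratio of Q111 to Q7 reads, with 0.5 reads added to each, minus its median of 0.01 over the 34722 events with 20 or more reads in each line. Positive values mean more FRA2 reads in Q111. An event is called when a two-sided exact binomial test of its reads gives a Benjamini-Hochberg adjusted p under 0.05 and the fold is at least 2. Such a call compares the pooled libraries, not the genotypes, and all intervals cover counting error only.

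FRA2 reads were higher in Q111 at some sites and higher in Q7 at a similar number of others. Over all events the log2 ratio had a median of 0.03, with quartiles of -0.85 and 1.004. At the extremes, 1% of the events lay below -3.52 and 1% above 3.89. Of all events 24.1% (15542) were called higher in Q111 and 21.1% (13639) higher in Q7, 45.2% in either direction. A difference of 4-fold or more was seen at 6592 events (10.2%) towards Q111 and at 4874 (7.55%) towards Q7, while 12806 events (19.8%) lay within 0.32 of 0 on the log2 scale. The authors marked 30731 events present in both lines, but only 7.04% and 7.02% of these 4-fold events, respectively. A mark in 1 line was enough for listing, so these shares describe the listed events and not an unselected set of sites. The balance of the directions was not fixed. When the total control signal set the scale, which moves the median of all events to -0.36, 35.5% of the calls were higher in Q111, against 53.3% here.

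Over all listed events the called share fell with the number of reads. Among events with 480 or more reads over both lines, 9.08% were called, the median difference in either direction was 1.24-fold, and 77.3% had a SOX2 event within 100 bp. Among events with at least 120 and under 240 reads the called share was 36.6% and the median difference 1.63-fold, and among those with at least 60 and under 120 reads 43.1% and 1.78-fold. Over all listed events the spread was wider than counting gives in every class of reads. For the strongest class the SD of the log2 ratio was 0.69, against 0.12 from read numbers alone, and for events with at least 60 and under 120 reads it was 1.46 against 0.32. Events with few reads stand apart in how they were listed. Every listed event was marked present in at least 1 line, none of the 3004 events with under 30 reads in all was marked in both, and 98.7% of these were called. Among events that carried both marks the called share was not ordered by reads: it was 0% at 30 to under 60 reads, 20.3% at 60 to under 120, 31.4% at 120 to under 240, 20.8% at 240 to under 480 and 8.86% at 480 or more. The median difference of these events was 1.19-fold in the first of these classes, 1.55-fold in the third and 1.24-fold in the last. In the first class the SD of the log2 ratio was 0.36, below the 0.40 from read numbers alone. Carrying both marks at so few reads limits how far the lines can differ, so its 0% is no measure of agreement.

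**Figure D1:**
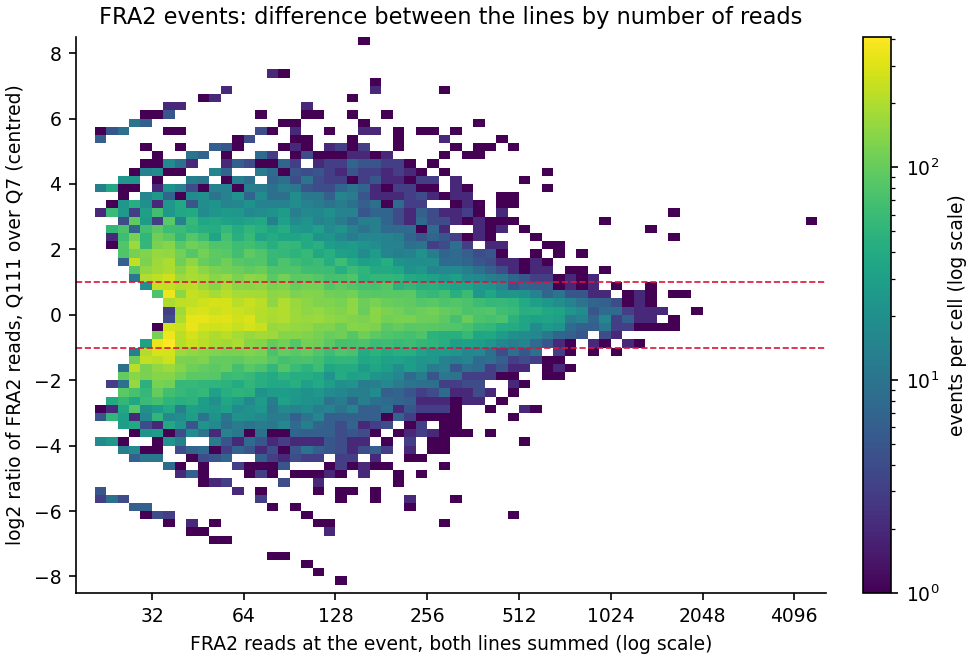
Number of FRA2 events (colour, log scale) by reads summed over both lines (horizontal, log scale) and log2 ratio of Q111 to Q7 reads (vertical); dashed lines mark 2-fold. The cloud narrows towards strong events, where 9.08% of those with 480 or more reads were called, and splits into an upper and a lower arm at the left edge, where no event with under 30 reads was marked present in both lines.

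Strong sites that were equal in both lines after centring could be named, with intervals that cover counting error only. Control scaling, under which the median of all events was -0.36, moves all of these sites towards Q7. The 95% interval of the fold lay wholly within 0.32 of 0 on the log2 scale at 299 events, which held a median of 599 reads, and all of these had a JUND event within 100 bp. That is no trait of equal sites, as it held for 99.7% of all events with 240 to under 480 reads and 99.6% of those with 480 or more. The chromosome 15 site at 76026774 showed 716 FRA2 reads for Q7 and 742.8 for Q111, a fold of 1.03 (0.93 to 1.14). The JUND event 4 bp away had 305.4 and 280.4 reads, so both AP-1 subunits were level there. On chromosome 19 position 20468272 had 695 and 753 FRA2 reads (1.07-fold, 0.97 to 1.19), and position 41529696 had 581 and 584 (0.89 to 1.13). On chromosome 10 position 16309391 had 681.9 and 680.9 (0.91 to 1.13), and on chromosome 13 position 20525218 had 650 and 595, 1.10-fold towards Q7 (0.985 to 1.234). SOX2 events lay 9 to 59 bp from 9 of the 10 equal sites with the most reads, the exception being chromosome 13 position 45719420. Of all events with 480 or more reads, 77.3% had a SOX2 event within 100 bp.

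At the other end, some FRA2 sites were nearly private to a line. There were 114 events with 3 or fewer reads in Q7 and 60 or more in Q111, and 62 events with the reverse. JUND followed FRA2 at these sites: a JUND event lay within 100 bp at 92 of the 114, with a median JUND log2 ratio of 3.41 and none below 1.48, and at 54 of the 62, with a median of -3.69 and none above -1.36. SOX2 events were unevenly placed, as no Q111 site of this kind had a SOX2 event within 1 kb, against 54 of the 62 Q7 sites. Over all FRA2 events of a chromosome this share was between 24.6% (chromosome X) and 45.6% (chromosome 19), the mitochondrial one aside. SOX2 was mapped in Q7, and SOX2 in Q111 was not analysed here. The Q111 sites were chosen for 3 or fewer FRA2 reads in Q7, so the choice itself bears on this contrast.

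Taking from each chromosome the called event whose interval lay farthest from equality gave 21 sites higher in Q111 and 20 higher in Q7. The 4 with the farthest intervals in each direction are given here. At position 106815657 of chromosome 11 the Q7 library had 0 FRA2 reads and the Q111 library 157. With a floor of 3 reads in place of 0 this is 51.9-fold higher in Q111, and the lower limit of the interval was 41.7. The JUND event 7 bp away had 2 and 114 reads. At position 51019699 of chromosome 19 the FRA2 reads were 2 and 282.3, a ratio of 112.1 (38.3 to 1159). At position 84284501 of chromosome 17 they were 0.8 and 179.3 (interval 31.4 to 7044), and at position 23822444 of chromosome 13 they were 1 and 166 (29.1 to 6535). All 4 were close to empty in Q7 and above the upper quartile of 63 reads in Q111. The most reads among the Q111 sites were at position 95219739 of chromosome 6, with 13 and 493, or 36.2-fold (21.8 to 71.1; adjusted p of 1.01e-122 by the exact binomial test). In the other direction, position 101265974 of chromosome 3 had 129.9 reads against 0, with a SOX2 event 2 bp away. The same floor puts this at 43.7-fold towards Q7, with a lower interval limit of 35.1. At position 25536717 of chromosome 19 the Q7 library had 488 reads and the Q111 library 7, 65.7-fold towards Q7 (33.9 to 175.9), and JUND had 200 and 2. At position 14732368 of chromosome 8 the FRA2 reads were 285.9 and 3, a ratio of 82.6 (32.6 to 469.3). At position 76561303 of chromosome 2 they were 109 and 0, with a SOX2 event 7 bp away. The floor puts the fold at 36.7, with a lower interval limit of 29.3. None of these 41 events was marked present in both lines. Their choice by fold left at most 14.5 reads in the lower line, so this is no separate finding. JUND had the same sign at all 21 Q111 sites and at all 18 of the Q7 sites with a JUND event within 100 bp. A SOX2 event lay within 1 kb of 19 of the 20 Q7 sites and of none of the 21 Q111 sites. Here too the Q111 sites were chosen low in Q7, the line in which SOX2 was mapped, which limits this contrast. One of the Q111 sites, position 16265 of the mitochondrial chromosome, is of another kind, with 14.5 and 75.6 FRA2 reads over 18.6 and 10.2 control reads. One of the Q7 sites, position 71673698 of chromosome 6, had a neighbour 18 bp away with the opposite difference, and the reads of both summed to a log2 ratio of 0.02. This site is among the 18, but its FRA2 log2 ratio was -6.50 and that of the JUND event 12 bp away only -0.52 (79 and 55 reads).

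The difference was not spread evenly over the chromosomes, although chromosomes differed far less than events did. The median log2 ratio ranged from -0.44 on chromosome 17 to 0.37 on chromosome 14, while the distance between the quartiles within a chromosome was 1.58 to 2.01. On chromosome 17, 753 of 2551 events (29.5%) were called higher in Q7 and 388 (15.2%) higher in Q111. Chromosomes 19 (-0.23), 9 (-0.18) and 7 (-0.17) followed. On chromosome 14, 588 of 1926 events (30.5%) were called higher in Q111 and 291 (15.1%) higher in Q7, followed by chromosomes 6 (0.26), 11 (0.20) and 4 (0.19). Chromosomes 10 and 13 lay at -0.01. Of the 20 chromosomes, 14 had more calls towards Q111 and 6 more towards Q7. JUND medians had the same sign as FRA2 medians on 17 of the 20, with -0.60 on chromosome 17 and 0.28 on chromosome 14. The sign of a chromosome median depends on the scaling. With control scaling that of chromosome 14 was -0.03, and that of chromosome 17 was -0.83. Under that scaling the order of chromosomes stays, since every event moves by the same amount.

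With the centring used here, chromosome 17 was the one chromosome with no 10 Mb segment above 0. Chromosome 19 came close, with 6 of 7 segments below 0 and the highest at 0.003, so this distinction rests on the centring. All 9 of the chromosome 17 segments with 50 or more events had a median below 0, from -0.75 between 70 and 80 Mb to -0.01 between 60 and 70 Mb. The latter was level, with 27.3% of its 278 events called higher in Q111 and 22.3% higher in Q7. The JUND medians of the same segments were all below 0, from -0.94 to -0.41. The control signal of chromosome 17 had a log2 ratio of 0.49, against 0.41 over all events, and the part of the control in the shift was not tested. Among FRA2 events of chromosome 17 with no JUND event within 1 kb, the median was -0.12. On chromosome 14 the segments did not all follow the chromosome: 9 of 11 were above 0, with up to 0.64 between 50 and 60 Mb, whereas the segment from 110 to 120 Mb had a median of -0.77 over 51 events, with 49.0% called higher in Q7. The largest shifts over 10 Mb lay on other chromosomes. The segment of chromosome 8 from 50 to 60 Mb had a median of 1.40 (131 events, 52.7% called higher in Q111), that of chromosome 10 from 100 to 110 Mb 1.22 (53.1% called higher in Q111) and that of chromosome 16 from 80 to 90 Mb 1.09 (148 events). Their control log2 ratios were -0.23, -0.35 and -0.16, below that of all events, and the part of the control in these shifts was not tested.

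**Figure D2:**
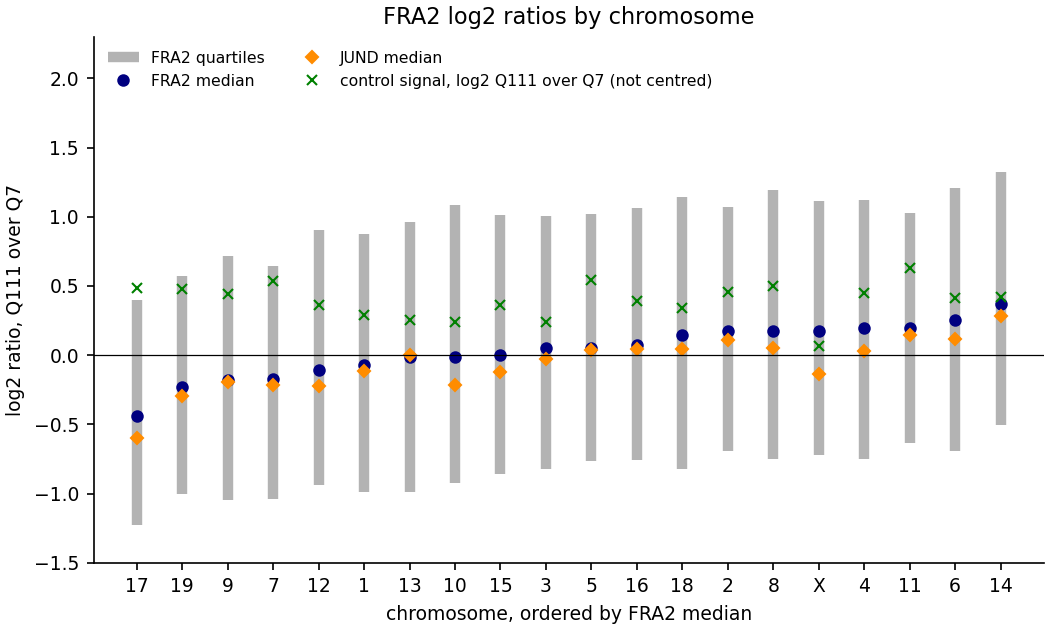
Log2 ratio of Q111 to Q7 by chromosome: FRA2 median (circle) with quartiles (grey bar), JUND median (diamond) and, not centred, the summed control signal at FRA2 events (cross). FRA2 medians run from -0.44 on chromosome 17 to 0.37 on chromosome 14, each inside the quartiles of the other chromosomes, and control ratios run from 0.07 on chromosome X to 0.63 on chromosome 11.

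Most of the structure lay at a finer scale. Chromosomes accounted for 1.252% of the squared deviation of FRA2 log2 ratios, 10 Mb segments for 4.37%, 1 Mb windows for 17.1% and 100 kb windows for 34.1%, each adjusted for the number of units. Of pairs of events 0.2 to 1 kb apart, 72.9% had log2 ratios of the same sign. The share was 62.6% at 1 to 5 kb, 56.2% at 20 to 100 kb and 51.1% at 2000 to 10000 kb, against 50.02% for events on different chromosomes. Where both events of a pair were called, the direction was the same in 96.1% of pairs at 0.2 to 1 kb and in 66.2% at 20 to 100 kb. Sites within 1 kb thus mostly differed in the same direction, and beyond 2000 kb hardly more often than events on different chromosomes. Consecutive events over 200 bp apart shared the sign in 61.4% of 63079 pairs, in 58.5% when limited to events with 60 or more reads, and in 53.5% among events that were not called.

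**Figure D3:**
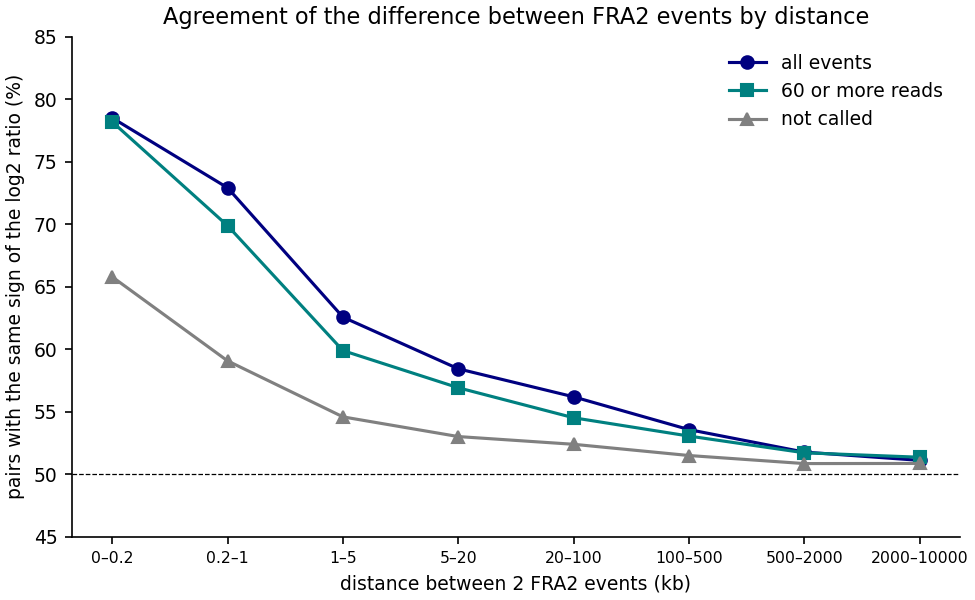
Share of pairs of FRA2 events with the same sign of the log2 ratio (vertical, %) by their distance (horizontal, kb), for all events, for events with 60 or more reads over both lines and for events not called; the dashed line marks 50%. For all events the share falls from 78.5% under 0.2 kb to 51.1% beyond 2000 kb.

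Some 1 Mb windows had medians far from 0. Of 1402 windows of 1 Mb with 20 or more FRA2 events, 112 (7.99%) had a median log2 ratio of 1 or more and 33 (2.35%) a median of -1 or less. The former lay on all 20 chromosomes, with 15 on chromosome 8 and 12 on chromosome 6, and the latter on 16. These windows were chosen by the ratios of their own FRA2 events, so the calls within them only describe them: 5.97% of the 3752 events of the 112 windows were called higher in Q7, against their windows' direction, and 7.32% of the 1079 events of the 33 windows higher in Q111. Calls in both directions occurred within 96.5% of all windows. The number of such windows moved with how they were valued: 51 and 11 by summed reads, which weight strong sites, 23 and 3 of 727 when events needed 60 reads, and 58 and 137 with control scaling.

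The window most shifted towards Q111 was the 1 Mb of chromosome 11 that holds position 111758502. All 22 of its FRA2 events were positive and 21 were called, with a median log2 ratio of 3.16. Median reads per event were 4 for Q7 against 35.5 for Q111, and none was marked present in Q7. At that position, the event with the farthest interval, 6 Q7 reads stood against 361, or 55.1-fold (27.1 to 163.5). No SOX2 event was listed in this window, and the 12 JUND events had a median of 3.53. The windows on either side had FRA2 medians of 1.66 and 1.46. This was not the rule: of 23 flanking windows with 20 or more events around the 20 named windows, 19 had a median of the same sign and 8 were past 1 in that direction. Flanks of the opposite sign, some with fewer events, included the windows before 106 Mb (-1.76, 18 events) and 134 Mb (-1.81, 12 events) of chromosome 2, after 68 Mb of chromosome 5 (-1.38, 6 events), before 63 Mb of chromosome 10 (-0.61, 35 events) and before 8 Mb of chromosome 4 (2.97, 15 events).

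On chromosome 6 from 12 to 13 Mb all 28 events were positive and 26 were called (median 2.98). Position 12309001 had 14 Q7 and 264.9 Q111 reads (18.1-fold, 11.0 to 34.8), and the event whose upper interval limit was lowest, at position 12971723, had 44.6 and 90.4. The window that follows had a median of 1.79. On chromosome 8 from 58 to 59 Mb all 44 events were called higher in Q111 (median 2.54), with 10 and 355.8 reads at position 58922661 (33.6-fold, 19.0 to 74.2). The following window had a median of 0.06 over 24 events, and no event was listed in the preceding one. On chromosome 4 from 13 to 14 Mb all 27 events were positive and 23 called (median 2.72). Its strongest interval was at position 13923027, with 2 Q7 and 101 Q111 reads, a ratio of 40.2 (13.5 to 418.8).

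Other Q111 windows held exceptions within them. On chromosome 10 from 63 to 64 Mb (median 2.61) 16 of 21 events were positive, and position 63371848 had 17 and 232 reads (13.2-fold, 8.26 to 23.6). At position 63539371 of the same window FRA2 leaned the other way, with 175.4 Q7 and 66 Q111 reads, or 2.67-fold towards Q7 (2.005 to 3.61), with a SOX2 event 26 bp away and JUND at 69 and 30.3 reads. On chromosome 2 from 134 to 135 Mb (median 2.06, 34 of 37 positive) position 134794309 had 4 and 207 reads (45.7-fold, 19.7 to 190.0), while position 134168479, 11 bp from a SOX2 event, had 55.2 and 17.3. On chromosome 6 from 65 to 66 Mb (median 2.15) position 65557264 had 1.4 and 91.6 reads, whereas position 65822722 had 77 and 18 (4.23-fold towards Q7, 2.56 to 7.67), and JUND followed it with 28 and 6. On chromosome 5 from 67 to 68 Mb (median 2.16) a pair of sites differed in opposite directions, position 67647079 with 11 and 113 reads and position 67642997 with 51 and 15. The remaining windows of the 10 were on chromosome 2, from 10 to 11 Mb (median 2.24) and from 106 to 107 Mb (2.18).

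The windows most shifted towards Q7 were more mixed. On chromosome 9 from 47 to 48 Mb the median was -2.70 over 22 events, with 14 called higher in Q7 and 2 higher in Q111. Position 47398192 had 81.7 and 0 reads, 27.5-fold towards Q7 against the floor of 3 reads, with a lower interval limit of 21.9. Position 47770705 had 3 and 42 reads (a ratio of 12.0 towards Q111, 4.43 to 70.0). On chromosome 14 from 117 to 118 Mb 19 of 20 events were negative and 16 called (median -2.57), with 87 and 2 reads at position 117926491. On chromosome 8 from 50 to 51 Mb 22 of 23 were negative and 20 called (median -2.18), with 130 and 6 reads at position 50128785 (20.3-fold, 9.78 to 60.7), and the preceding window was shifted too (-1.16). On chromosome 7 from 122 to 123 Mb 24 of 25 were negative (median -1.97), and both flanking windows were negative (-1.09 and -0.81). On chromosome 13 from 47 to 48 Mb 33 of 39 were negative (median -1.89). There position 47732365 had 159.9 FRA2 reads in Q7 and 7.7 in Q111 (19.7-fold, 10.001 to 47.6) and JUND had 137 and 2, while position 47872644 had 11 and 71 FRA2 reads. Chromosome 5 from 102 to 103 Mb (-1.84), chromosome 10 from 115 to 116 Mb (-1.60), chromosome 4 from 153 to 154 Mb (-1.59) and from 8 to 9 Mb (-1.499) and chromosome 9 from 24 to 25 Mb (-1.52) completed the 10.

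**Figure D4:**
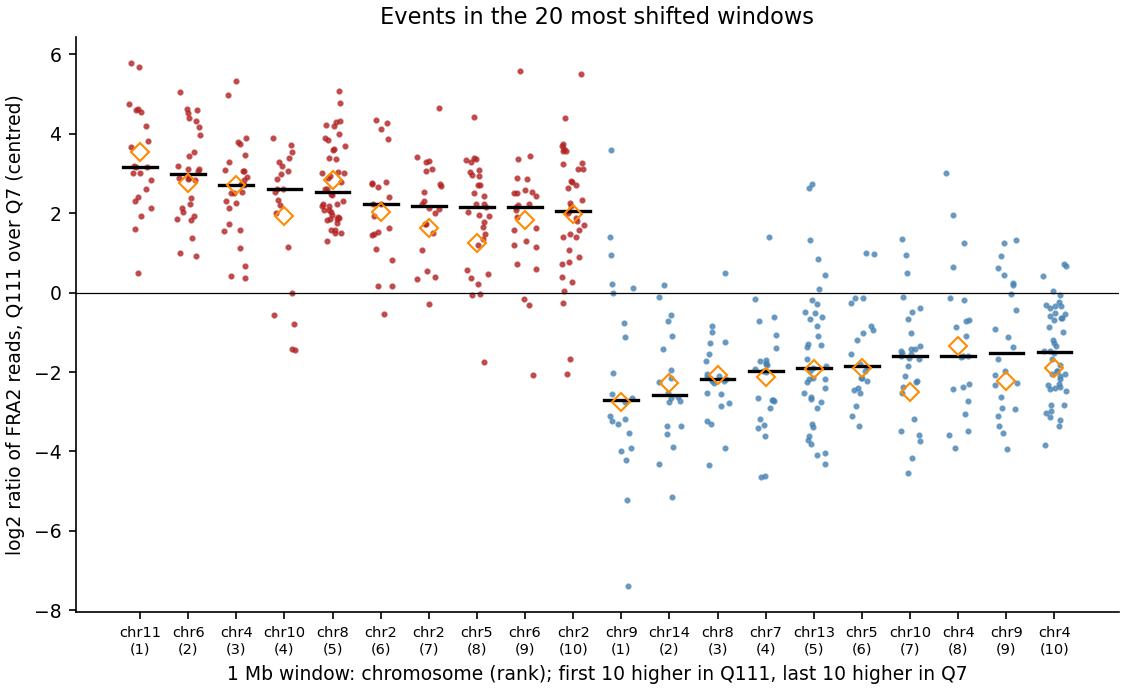
Log2 ratio of each FRA2 event (points) in the 10 windows of 1 Mb with the highest medians (red) and the 10 with the lowest (blue), labelled by chromosome and rank; black bars are FRA2 medians and open diamonds JUND medians of the same windows. In 4 of the Q111 windows every event lies above 0, every Q7 window holds at least 1 event above 0, and JUND medians lie on the same side as FRA2 medians in all 20.

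JUND, measured in libraries of its own, shifted in the same windows. Over the 1020 windows with 20 or more events of each protein, FRA2 and JUND medians correlated with a Pearson r of 0.866 (Spearman rho 0.810), and 81.3% had the same sign. Windows of a line share its cells and its chromosomes, so these values describe the libraries and carry no p. Among windows with 10 or more JUND events, the JUND median was positive in 109 of the 110 Q111 windows and negative in all 32 of the Q7 windows. It was past 1 in 68 of the former and past -1 in 28 of the latter. In the 1243 remaining windows it was positive in 516 and negative in 727.

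The control signal differed between these windows and the rest. In the 112 Q111 windows the control averaged 3.97 reads per event in Q7 and 3.99 in Q111, a log2 ratio of 0.01, and in the 33 Q7 windows 4.37 and 4.82 (0.14), both below the 0.47 of the remaining windows. By summed reads 51 windows were at 1 or more and 11 at -1 or less. With the log2 control ratio of each window taken off, these numbers were 67 and 183, and with the control ratio also centred on that of all events, 0.41, they were 140 and 27. The part of the control in the FRA2 differences was not tested beyond this.

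At single sites with a JUND event listed within 100 bp, the JUND log2 ratio rose with that of FRA2. Where FRA2 was 4-fold or more higher in Q111, the JUND event within 100 bp had a median log2 ratio of 2.38 (quartiles 1.82 and 3.04, 3222 sites), and 99.8% of them were above 0. Where FRA2 was 4-fold or more higher in Q7, the JUND median was -2.32 (quartiles -2.93 and -1.80, 2738 sites). Between, the JUND median went from -1.41 for FRA2 ratios of -2 to -1, through -0.06 for ratios between -0.32 and 0.32, to 1.28 for ratios of 1 to 2. Sites without a listed JUND event have no JUND ratio here, and how often a JUND event was found depended on the reads. For events 4-fold higher in Q7, 4-fold higher in Q111 and within -0.32 to 0.32, the shares were 56.2%, 48.9% and 66.5% over all events. They were 84.0%, 72.2% and 62.1% with at least 60 and under 120 reads, and 98.5%, 95.4% and 94.9% with at least 120 and under 240.

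SOX2 events of Q7 were rarer beside FRA2 sites the more these leaned towards Q111. Among FRA2 events with at least 60 and under 120 reads, a class in which the median number of reads was 79.6 to 82 for every level of difference, the share with a SOX2 event within 100 bp was 55.7% where FRA2 was 4-fold or more higher in Q7. It was 38.4% for log2 ratios of -2 to -1, 23.4% for -0.32 to 0.32, 5.54% for 1 to 2 and 0.77% (14 of 1823) where FRA2 was 4-fold or more higher in Q111. Events with at least 120 and under 240 reads gave 69.7% at the first of these levels and 1.61% at the last. Reads were matched here as the sum over both lines, so Q7 reads, the line in which SOX2 was mapped, fall along this axis by construction. Over all events the shares were 44.1% and 0.79%, and within 1 kb 60.9% and 2.96%. The windows showed the same: the Q111 windows held 21.3 SOX2 events per 100 FRA2 events, the Q7 windows 54.1 and the remaining windows 43.1. In the 10 most shifted windows of each kind there were 30 SOX2 events beside 278 FRA2 events for Q111 and 155 beside 271 for Q7. These shares come from SOX2 in Q7 and do not show how SOX2 differs between the lines.

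**Figure D5:**
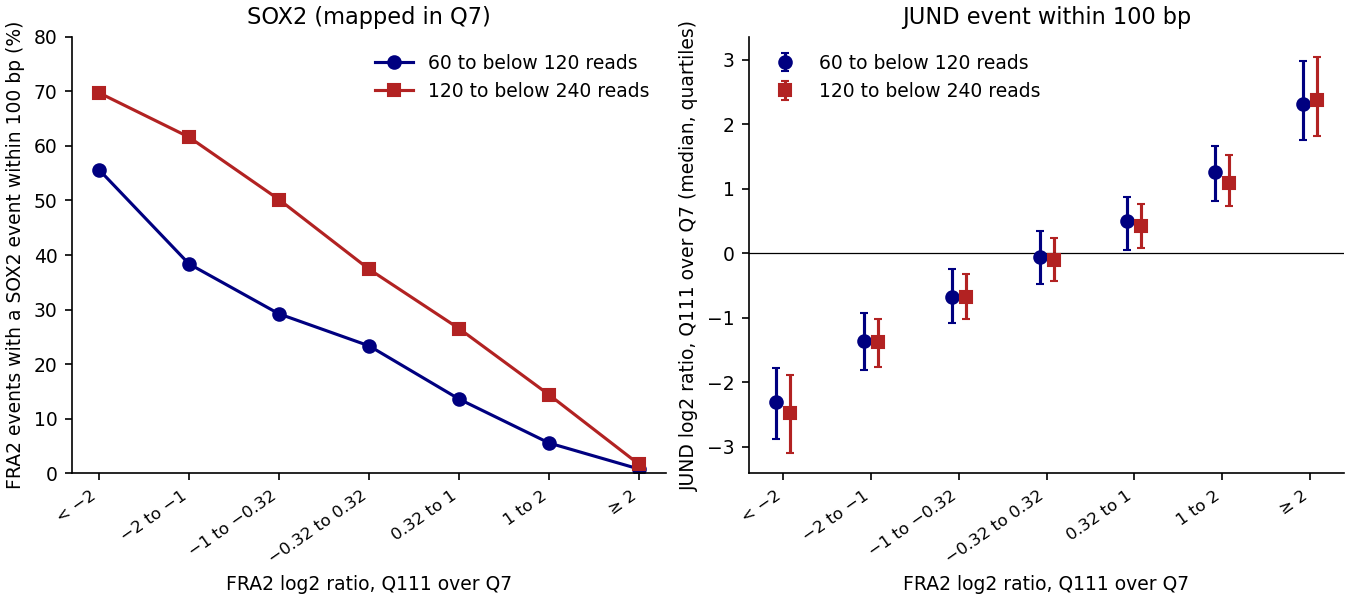
Left, share of FRA2 events with a SOX2 event of Q7 within 100 bp (vertical, %) by FRA2 log2 ratio (horizontal, classes); right, log2 ratio of the JUND event within 100 bp (median and quartiles) for the same classes. Circles are events with at least 60 and under 120 FRA2 reads over both lines and squares those with at least 120 and under 240; SOX2 shares fall from 55.7% and 69.7% to 0.77% and 1.61% while JUND medians rise from -2.31 and -2.47 to 2.32 and 2.39.

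Isolated FRA2 sites leaned towards Q111. The 16871 events with another FRA2 event within 1 kb had a median log2 ratio of -0.09, with 19.0% called higher in Q111 and 21.9% higher in Q7. The 3251 events with none within 50 kb had a median of 0.54, with 38.6% called higher in Q111 and 19.7% higher in Q7. Isolated events also had fewer reads, a median of 51 against 73.8. Among events with at least 60 and under 120 reads the medians were -0.07 and 0.38, and the shares called higher in Q111 were 19.9% and 33.1%.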

How the data were processed

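FRA2, JUND, SOX2 and IgG were immunoprecipitated from the Q7 line, and all but SOX2 from the Q111 line, and replicates 1 and 2 were pooled in each library, per the labels. Per the submitters' processing notes reads were aligned with Bowtie 0.12.7 to mm9. GPS, named with the deposited tables, called the events; its version was not given in the sources used here. IP columns hold expected counts as deposited by the authors, not scaled: 80.7% (Q7) and 81.0% (Q111) of FRA2 values were whole, and all were rounded for the tests. The deposited Control columns hold a signal, control reads scaled per library. The deposited q-value (−log10) served for 1 stricter filter, and the deposited present marks (other) were used as given by the authors. Another 23 value columns of the tables were not used here.

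Log2 ratios were computed with a pseudocount of 0.5 reads. The binomial test (scipy 1.17.1) was adjusted over all 64579 events, and calls needed a fold of 2. It was tried on simulated reads with counting error only, which does not test it under the wider spread seen here. Each fold interval is the 95% Clopper-Pearson interval of the Q111 share of reads, turned into a fold. A window needed 20 events. PCR reads are not independent molecules. Named events followed a rule: the farthest intervals per named window and chromosome, and the 10 equal events with the most reads; those of chromosome 18 are not printed. Members, lists and rules were chosen with earlier results of these data known. No mm9 annotation was used here, so no position is given a gene or sequence.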

Additional observations from a re-analysis of the deposited data

How the results depend on the processing

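No paired analysis was possible because each library pools its replicates, and none could be left out for the same reason. Calls higher in Q111 and Q7, 15542 and 13639, became 9427 and 7575 with an assumed dispersion of 0.05 per library, 6592 and 4874 with a fold limit of 4, and 6991 and 5827 with 60 or more reads, where fewer events were tested. With a deposited −log10 q of 5 or more, those higher in Q7 numbered 8981. The other settings kept both counts within 1.5 times. Windows at 1 or more and at -1 or less, 112 and 33, numbered 278 and 137 at 500 kb, 38 and 9 at 2 Mb, 51 and 11 by summed reads, 58 and 137 with control scaling, 67 and 183 with the control ratio subtracted, and 23 and 3 with 60 or more reads. The chromosome 17 median of -0.44 was -0.83 with control scaling, -0.81 with the control ratio subtracted, -0.32 by summed reads, -0.32 with 60 or more reads and -0.12 without JUND within 1 kb. The chromosome 14 median of 0.37 was 0.27 with 60 or more reads, 0.58 without JUND within 1 kb, -0.027 with control scaling and -0.109 with the control ratio subtracted. Control scaling also reversed chromosomes 2 (-0.22), 3 (-0.34), 4 (-0.20), 5 (-0.34), 6 (-0.14), 8 (-0.22), 11 (-0.20), 16 (-0.32), 18 (-0.25) and X (-0.22), since it lowers every log2 ratio by the same amount. Subtracting the control ratio from that of summed reads reversed chromosomes 2 (-0.278), 3 (-0.204), 4 (-0.307), 5 (-0.473), 6 (-0.196), 8 (-0.323), 11 (-0.388), 16 (-0.321) and 18 (-0.209). Centred on the control ratio of all events, it reversed 1 (0.074), 5 (-0.064) and 12 (0.013). Events without JUND within 1 kb reversed chromosomes 1 (0.055) and 12 (0.14), and the cause was not tested. Reversals were counted only where the interval of the main median over events excluded 0. Chromosomes 10 (-0.013), 13 (-0.013) and 15 (0.001) did not meet this but changed sign too. The first 2 were 0.181 and 0.138 with the centred control ratio, and 0.431 and 0.183 without JUND within 1 kb. Chromosome 15 was -0.394 with control scaling and -0.324 with the control ratio subtracted. Neighbours with the same sign, 61.4%, were 53.5% without called events and 58.5% with 60 or more reads. SOX2 shares of 0.79% (4-fold higher in Q111) and 44.1% (Q7) were 2.96% and 60.9% within 1 kb, 1.42% and 61.2% with 60 or more reads, and 0.59% and 41.0% with control scaling. The alternatives on SOX2, on JUND, without JUND and with the centred control ratio were chosen after seeing the data. Of 704 recomputed values of the 88 named events, none reversed a call and 6 fell below the call. Direction was not compared at named events without a call. Control scaling, which lowers every log2 ratio by the same amount, moved some of these across 0. The 20 named windows kept their direction in all 120 recomputed values, but sizes moved. On chromosome 9 the window from 24 Mb (-1.52) was -0.45 with 60 or more reads, -0.62 by summed reads and -0.07 with the centred control ratio, and that from 47 Mb (-2.70) was -0.56 without JUND. On chromosome 4 that from 153 Mb (-1.59) was -0.72 with 60 or more reads, and on chromosome 10 that from 63 Mb (2.61) was 1.12 by summed reads. Reads in events are the only depth known.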

Other observations

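Close pairs of listed FRA2 events with opposite calls were rare. Among pairs of events under 200 bp apart, 4 had both events called in opposite directions, and in all 4 the summed reads were within 2-fold. On chromosome 6 positions 71673680 and 71673698, 18 bp apart, had 0 and 53.2 reads in Q7 and 54.4 and 0.1 in Q111. On chromosome 5 positions 123485756 and 123485774, also 18 bp apart, had 0 and 25 reads in Q7 and 25 and 0 in Q111. These pairs were chosen after their values were seen, and a shift of the called position between the libraries was not tested.

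The mitochondrial chromosome held 3 listed FRA2 events with 200 reads in Q7 and 419 in Q111, a summed log2 ratio of 1.05. Their control averaged 42.1 reads in Q7 and 23.8 in Q111, a log2 ratio of -0.82, against 0.41 over all events.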
